A study of Mus musculus with 4 samples.

Results

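The complement genes examined here are 33 genes that encode complement components, receptors and regulators, taken from a list of symbols and not by a threshold on their values, although the list was drawn up with earlier results of these data known. All 33 were found among the 24063 gene symbols measured. They were measured in lung cells of C57BL6J mice (8 weeks of age) that were pulled out with anti-CD31 beads and that the labels call endothelial cells (ECs). In 1 group the left lung had been removed (unilateral pneumonectomy, PNX) 7 days earlier, and the other group had a sham operation, a thoracotomy without PNX. Each group had 2 libraries, each made from the pooled cells of 2 mice, so that a p-value measures the spread between 2 pools and not between single animals. No transgene, deletion or drug distinguished the groups, and the post-PNX cells came from the lobes that remained. The comparison asks how the RNA of lung ECs differed during the growth that follows PNX.

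Complement is a cascade of plasma proteins. The classical pathway starts when C1q binds antibody, dying cells or other surfaces, the lectin pathway when collectins or ficolins bind sugars, and the alternative pathway by slow turnover of C3 that factor B, factor D and properdin amplify. All of them cleave C3, which marks surfaces for uptake, and then C5, which begins the membrane attack complex of C5b to C9. The fragments C3a and C5a act on receptors of leukocytes, and regulators on host cells and in plasma limit the cascade. The liver makes most of the plasma proteins, while C1q comes largely from macrophages and dendritic cells, and ECs are known to carry regulators on their surface.

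Counts on 1 transcript per gene came to between 41367438 and 50952879 per library, so that 3 counts, the floor used here, equalled 0.0589 to 0.0725 CPM. This floor covers counting error only. Values below are normalized counts, brought to a common library size with TMM factors (a correction for composition). Pecam1, the gene for CD31, had between 90191 and 91116 normalized counts in the 4 libraries. The libraries of a group were often close, as for Serping1 after PNX (18340 and 18343). Small p-values thus rest on a small spread between 2 pools and do not measure the spread between animals. The labels give male mice, but Xist had between 31872 and 33792 normalized counts, and all 44 genes of chromosome Y in the tables were at 0 in every library. This held in both groups, so no result could be given without such libraries.

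The libraries also held RNA of other cell types. In sham, Sftpc, the surfactant protein C gene of alveolar type 2 cells, had a mean of 212970 normalized counts per kilobase of transcript, against 27662 for Cdh5 (VE-cadherin). Ptprc, the gene for the pan-leukocyte protein CD45, was between 11422 and 11665 in all libraries. Of 12 EC markers none passed the thresholds defined below, but only 1 had a log2 fold change (post-PNX over sham) above 0, and the median was -0.25. Their summed level was 507183 and 512540 in sham and 434802 and 436957 after PNX. The paper's methods state that the isolated cells were checked by flow cytometry as positive for CD31 and VE-cadherin and negative for CD45. In bulk RNA of this kind, fewer cells of a type and less RNA per cell cannot be told apart.

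Promoter windows are shown for C1qb, C1qc and Vsig4, which were higher after PNX and hold the motif GAGGAA, and for C3, the gene with the most counts of the 33. They were chosen after the matches were seen. Each line gives the 250 bases before an annotated start, 5′ to 3′ on the gene's own strand, from RefSeq in build GRCm38.p6. Capitals mark GAGGAA, read on either strand, in C1qb, C1qc and Vsig4, a core sequence bound by PU.1, an ETS-family factor of myeloid cells. In C3 the capitals mark TTGCNNAA, a sequence bound by C/EBP factors. All 4 genes lie on the minus strand, at chr4:136886201-136886450 for C1qb, chr4:136892915-136893164 for C1qc, chrX:96293439-96293688 for Vsig4 and chr17:57228137-57228386 for C3.
C1qb: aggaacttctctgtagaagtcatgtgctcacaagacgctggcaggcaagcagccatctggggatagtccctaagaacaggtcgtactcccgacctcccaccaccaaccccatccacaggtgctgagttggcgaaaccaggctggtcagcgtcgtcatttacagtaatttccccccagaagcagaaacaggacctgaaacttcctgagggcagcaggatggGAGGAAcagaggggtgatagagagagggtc
C1qc: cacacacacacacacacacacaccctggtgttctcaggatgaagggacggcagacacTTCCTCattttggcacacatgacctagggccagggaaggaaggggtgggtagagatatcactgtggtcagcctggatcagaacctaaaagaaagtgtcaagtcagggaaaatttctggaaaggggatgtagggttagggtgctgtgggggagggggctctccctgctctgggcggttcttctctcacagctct
Vsig4: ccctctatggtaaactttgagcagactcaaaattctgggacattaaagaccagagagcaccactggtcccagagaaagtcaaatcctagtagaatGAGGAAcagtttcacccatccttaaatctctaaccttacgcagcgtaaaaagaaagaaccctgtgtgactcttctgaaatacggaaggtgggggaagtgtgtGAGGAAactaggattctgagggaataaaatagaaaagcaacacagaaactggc
C3: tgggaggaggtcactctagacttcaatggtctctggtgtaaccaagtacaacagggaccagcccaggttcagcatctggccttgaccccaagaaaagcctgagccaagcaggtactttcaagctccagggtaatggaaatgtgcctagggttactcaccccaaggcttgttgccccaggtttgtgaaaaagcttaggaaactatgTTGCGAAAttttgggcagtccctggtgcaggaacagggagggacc

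Promoter windows were found for 24 of the 33 genes. GAGGAA was present in windows of 5 of these genes (C1qb, C1qc, Vsig4, C5ar2 and Cd59a), that is in 18.5% of the complement windows against 23.3% of all 32851 promoter windows. C5ar2 and Cd59a were not among the genes called below, and C3ar1, Cfd and Cfp, which were, hold none of the motifs searched. TTGCNNAA was present for 5 genes (C1rl, C1s1, C3, C5ar2 and C9), in 18.5% of the 27 complement windows against 9.56% of all windows. Of the other motifs searched on both strands, GGANNTTCC of NF-kB was found for C1s1, in 2 windows that overlap. These were 7.41% of the complement windows, against 3.59% of all windows. The interferon gamma motif TTCNNNGAA was found for C7, C8a and Masp2, in 11.1% against 7.02%. The interferon motif GAAANNGAA was found for C5ar1 and Cd59a, in 7.41% against 7.13%. Matches of different motifs shared bases in 0 of the complement windows. A match describes letters in the window and shows no binding. The genes for C1q chains A, B and C lie side by side on chromosome 4 between 136880126 and 136898844, and C4b, C4a, Cfb and C2 on chromosome 17 between 34728139 and 34882100.

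Of the 33 genes, 30 passed the filter on low counts and were tested in edgeR by quasi-likelihood, and p was adjusted by Benjamini and Hochberg's method across the 16208 genes that passed. With a log2 fold change (post-PNX over sham) beyond 1 and an adjusted p under 0.01, 12 were higher, against 5.90% of all genes tested, and 0 were lower, against 1.66%. DESeq2's Wald test also gave 12 and 0. At an unadjusted p under 0.05, 5 complement genes were lower in edgeR, none of them beyond the fold threshold. With an adjusted p under 0.01 whatever the fold, 20 were higher and 4 lower, against 29.3% and 27.8% of all genes. The median log2 fold change of the 30 genes was 0.68, and that of all genes tested was 0.00.

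The higher genes were C1qa, C1qb, C1qc, C1s1, C4b, C3, Cfb, Cfd, Cfp, C3ar1, Vsig4 and Cfi. They covered the start of the classical pathway, C3 and C4, the alternative pathway and a pair of receptors, with only 1 of the 7 regulators and none of the terminal genes. When counts were scaled to the 12 EC markers in place of TMM, the median of all genes rose by 0.23 on the log2 scale, and the same thresholds again gave 12 higher and 0 lower genes.

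**Figure D1:**
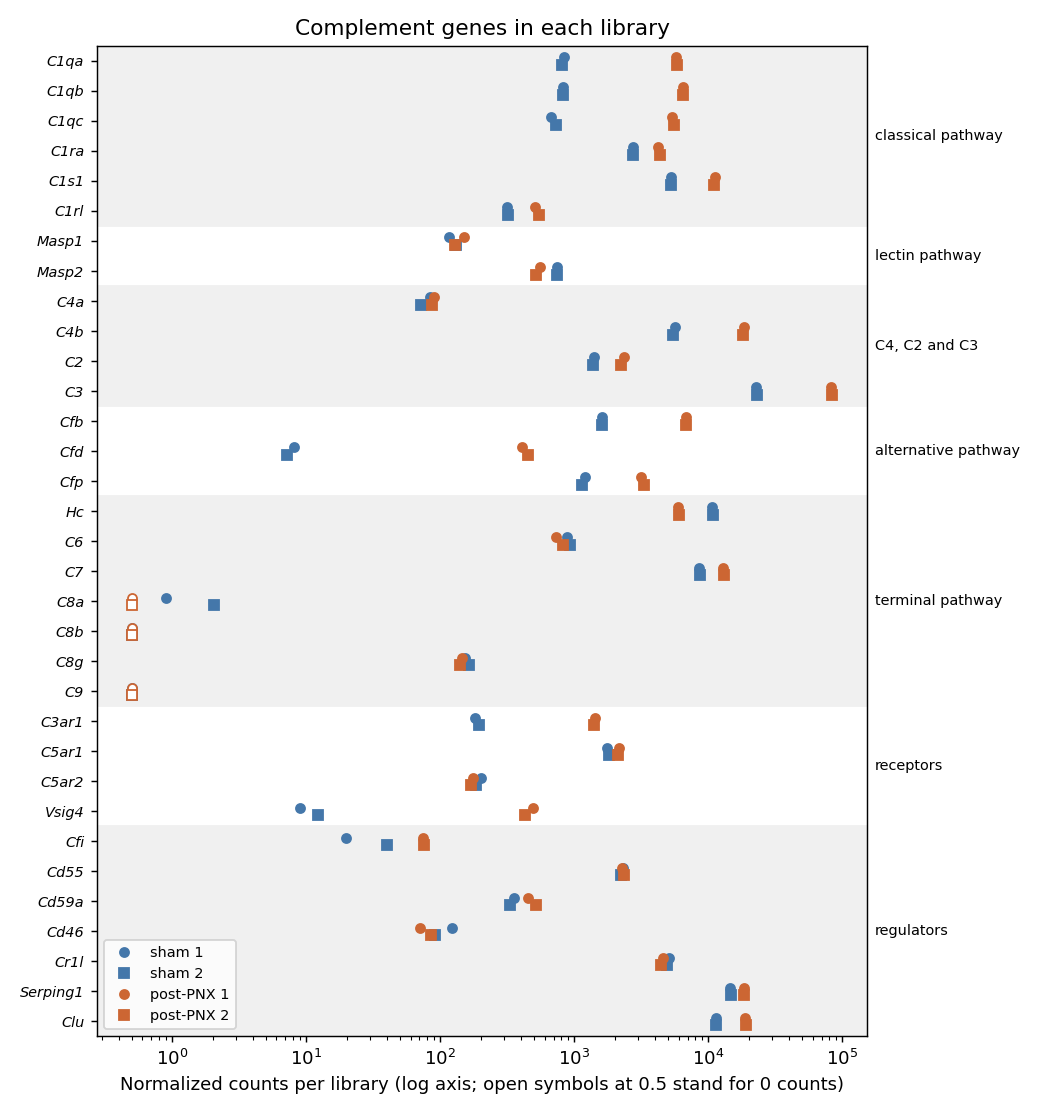
Normalized counts (log axis) of the 33 complement genes in each of the 4 libraries, ordered by role. Circles and squares are the libraries of each group, and open symbols at the left edge stand for 0 counts. The sham and post-PNX symbols lie far apart for C1qa to C1qc, Cfd, C3ar1 and Vsig4, and on top of each other for Cd55, and C8b and C9 have 0 counts throughout.

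**Figure D2:**
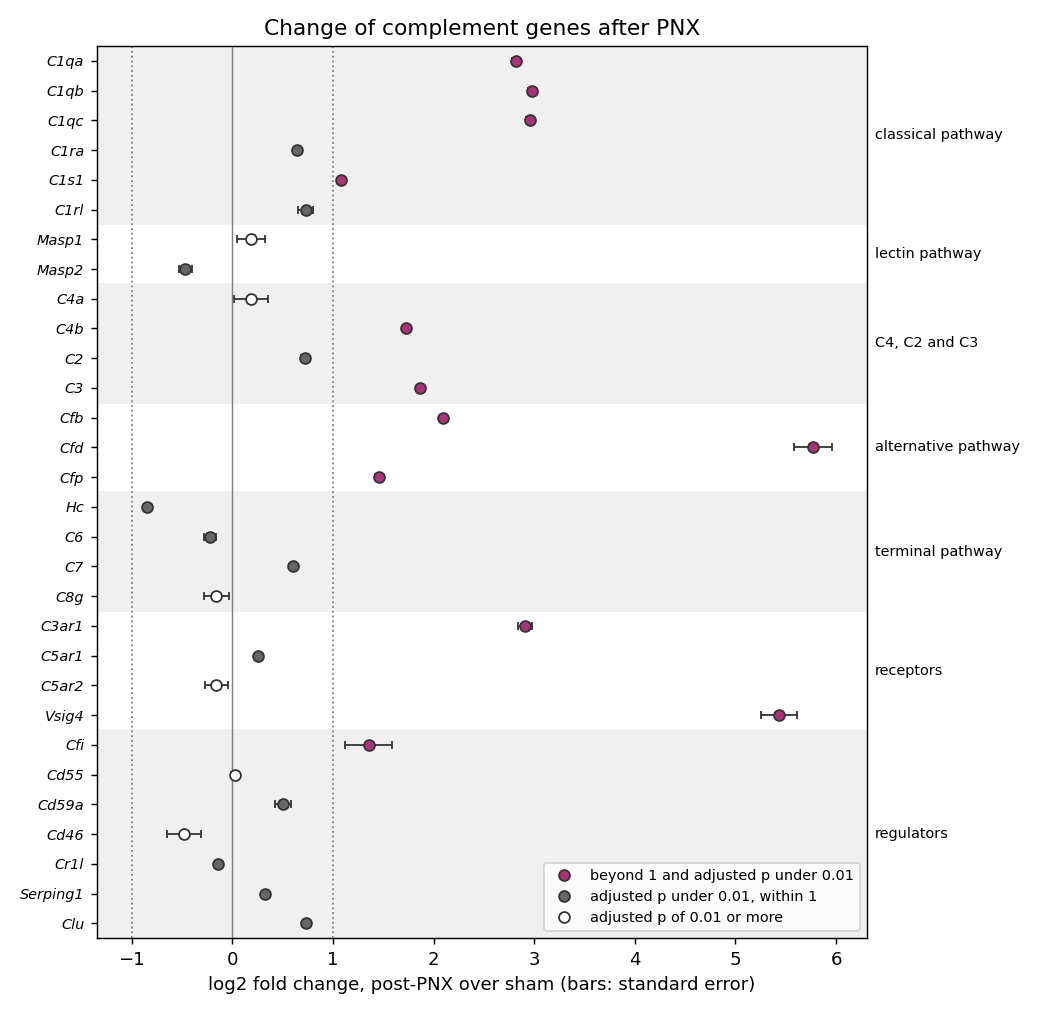
The log2 fold change of the 30 tested genes, post-PNX over sham, with its standard error. Filled purple points are the 12 genes beyond the dotted line at 1 with an adjusted p under 0.01, grey points passed the adjusted p within that line, and open points did not pass it. Cfd (5.77) and Vsig4 (5.43) lie farthest to the right and Hc (-0.85) farthest to the left.

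Added together per kilobase of transcript, so that long and short transcripts count alike, the level of the 33 genes was 37766 and 37862 in the sham libraries. It was 80155 and 80713 in the post-PNX libraries, 2.13-fold higher. The make-up of that sum differed between the groups. Serping1, the C1 inhibitor, held 21.2% and 21.4% of it in sham and 12.6% and 12.5% after PNX. C3 held a mean of 11.8% in sham and of 20.2% after PNX, the highest share of the 33 genes there. Each C1q gene held between 1.70% and 2.06% in sham and between 6.35% and 7.65% after PNX. Hc, which encodes C5, went the other way, from 5.22% and 5.27% to 1.37% in both post-PNX libraries. A share falls when others rise, so that Serping1 lost share while its own level was higher.

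**Figure D3:**
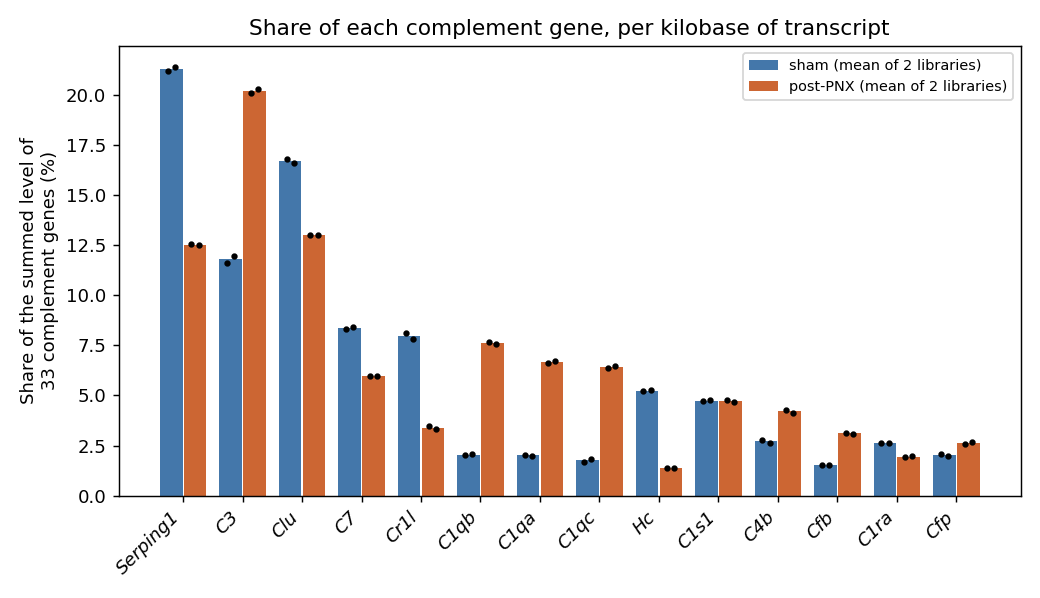
Share (%) of the summed level of 33 complement genes, per kilobase of transcript, for the 14 genes with the highest share. Bars are means of 2 libraries and dots the single libraries. Serping1 leads in sham at 21.3% and C3 after PNX at 20.2%, and the C1q bars are taller after PNX while the Hc and Cr1l bars are shorter.

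The C1q genes encode the A, B and C chains of the protein that starts the classical pathway. C1qa had 837 and 808 normalized counts in sham and 5724 and 5877 after PNX. C1qb had 820 and 829 in sham and 6510 and 6472 after PNX. C1qc had 675 and 726 in sham and 5365 and 5522 after PNX. In each of them both post-PNX libraries were far above both sham libraries, and the libraries of a group were close. The log2 fold changes were 2.82 for C1qa (SE 0.036, adjusted p = 1.0e-57), 2.98 for C1qb (SE 0.035, adjusted p = 7.9e-60) and 2.96 for C1qc (SE 0.039, adjusted p = 1.4e-57).

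The chains of C1q are made in equal number, and their RNA levels per kilobase were near each other. C1qa stood to C1qb as 1.00 and 0.957 in sham and as 0.863 and 0.891 after PNX. C1qc stood to C1qb as 0.829 and 0.882 in sham and as 0.830 and 0.860 after PNX. The ratio of C1qc to C1qb thus overlapped between the groups, while that of C1qa was lower in both post-PNX libraries.

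Macrophage markers moved with the C1q genes. Of 9 markers 4 were higher past the thresholds and none lower, with a median log2 fold change of 0.84, and no marker was at 0. Their summed level was 26211 and 25813 in sham and 41578 and 41392 after PNX, 1.59-fold higher. Those that passed were Emr1 (which encodes F4/80, log2 fold change 1.22), Cd163 (2.49), Ms4a7 (2.66) and Trem2 (2.49), while the widely used Csf1r (0.68) and Mrc1 (0.70) stayed under the fold threshold and Mertk had -0.33. Per kilobase the 3 C1q genes together were 0.270 and 0.274 of the summed macrophage markers in sham and 1.20 and 1.22 of them after PNX. Their part in the result was not tested.

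C1r and C1s are the serine proteases that C1q activates. C1s1 had 5262 and 5312 normalized counts in sham and 11268 and 11082 after PNX, a log2 fold change of 1.08 (SE 0.023, adjusted p = 9.8e-46), just past the fold threshold. C1ra had 2760 and 2758 in sham and 4236 and 4386 after PNX, with a log2 fold change of 0.64 (SE 0.030, adjusted p = 9.6e-28). C1rl, a C1r-like protease, had 315 and 322 in sham and 511 and 546 after PNX (log2 fold change 0.73, SE 0.078, adjusted p = 1.7e-12). All 3 were higher at an adjusted p under 0.01, as were 29.3% of all genes tested, and only C1s1 passed both thresholds. Per kilobase, C1s1 was 1.79 and 1.80 times C1ra in sham and 2.49 and 2.37 times after PNX. C1qb was on average 0.777 times C1ra in sham and 3.92 times after PNX.

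C1ra and C1s1 each have a close copy, and 48.0% of the windows of 50 bases in C1ra and 24.3% of those in C1s1 are also found in C1rb or C1s2. The copies had at most 8 and 25 counts in any library, and how the authors counted reads that fit both is not given in the sources used here. Of the exonic bases of C1s1, 18.4% also lie in Gm16567, on the opposite strand and not among the symbols measured.

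Neither gene of the lectin pathway was higher past both thresholds. Masp1, a protease that starts this pathway, had 116 and 132 normalized counts in sham and 151 and 128 after PNX. These libraries overlapped, and the log2 fold change of 0.19 (SE 0.14) had an adjusted p of 0.228. Masp2, the protease that cleaves C4 and C2, had 746 and 748 in sham and 557 and 520 after PNX, a log2 fold change of -0.47 (SE 0.063, adjusted p = 1.9e-09) within the fold threshold. The exons of Masp2 share 1817 bases, 54.9% of their length, with Tardbp on the opposite strand. Tardbp had 9874 to 10311 normalized counts per library and a log2 fold change of 0.04 (adjusted p = 0.113). The kit marks strand but the setting used in counting is not given in the sources used here, so reads of Masp2 and Tardbp cannot be told apart with certainty.

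C4 and C2 form the convertase that cleaves C3 in the classical and lectin pathways. C3 had 22540 and 23226 normalized counts in sham and 82695 and 84186 after PNX, the most of the 33 genes. This was a log2 fold change of 1.87 (SE 0.018, adjusted p = 4.6e-65), or 3.65-fold. C4b had 5672 and 5408 in sham and 18584 and 18000 after PNX (log2 fold change 1.72, SE 0.023, adjusted p = 5.5e-57), a value near that of C3. C2 went from 1399 and 1382 to 2346 and 2238, with a log2 fold change of 0.72 (SE 0.040, adjusted p = 1.4e-24). C4a, the neighbouring copy of C4b, had 83.3 and 71.4 in sham and 89.4 and 86.9 after PNX, and its log2 fold change of 0.18 (SE 0.17) had an adjusted p of 0.344.

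Nearly all C4 counts were on C4b. Per kilobase, C4b was 67.7 and 75.3 times C4a in sham and 207 and 206 times after PNX. Of the windows of 50 bases in C4a, 35.2% are identical in C4b, and the counting could have split or dropped such reads, so the values of both are uncertain to that extent. C3 was 2.23 and 2.27 times Hc, its successor in the cascade, in sham and 14.7 and 14.9 times after PNX.

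Fibroblast and mesothelial markers moved with C3, C4b and C1s1. Of 9 fibroblast markers 5 were higher and none lower (median log2 fold change 2.08), with summed levels of 66444 and 67127 in sham and 231550 and 233206 after PNX and no marker at 0. Those that passed were the collagen genes Col1a1, Col1a2 and Col3a1 and the proteoglycan genes Dcn and Lum, while Pdgfra (-0.23) and Tcf21 (0.02) had log2 fold changes near 0. Of 6 mesothelial markers found 4 were higher and none lower (median 1.06), with summed levels of 9728 and 9707 in sham and 22012 and 22122 after PNX and none at 0. Their part in the changes of the complement genes was not tested.

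All 3 genes of the alternative pathway were higher past the thresholds. Cfb, which encodes factor B, the protease of its C3 convertase, had 1609 and 1613 normalized counts in sham and 6876 and 6847 after PNX. Cfb had a log2 fold change of 2.09 (SE 0.031, adjusted p = 8.4e-55), against 0.72 for its neighbour and relative C2. Per kilobase Cfb was 1.11 and 1.12 times C2 in sham and 2.83 and 2.95 times after PNX. Gm20547, on the same strand and not among the symbols measured, shares 79.5% of the exonic bases of Cfb and 42.8% of those of C2. Its reads cannot be told apart from theirs with certainty. Cfp, which encodes properdin, the stabilizer of that convertase, had 1199 and 1139 in sham and 3151 and 3288 after PNX, a log2 fold change of 1.46 (SE 0.039, adjusted p = 7.7e-41).

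Cfd encodes factor D, also called adipsin, which cuts factor B and is made in quantity by fat cells. Sham replicates 1 and 2 had 9 and 7 counts of Cfd, and post-PNX replicates 413 and 403, or 8.15 and 7.14 against 406 and 449 normalized counts. The log2 fold change was 5.77 (SE 0.19, adjusted p = 6.5e-36), a 54.7-fold higher level that rests on few reads in sham. It was the largest change of the 30 genes tested.

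Some adipocyte markers moved beside Cfd, at low levels. Of 7 markers 5 were tested, and 3 were higher and none lower past the thresholds. Cidec (log2 fold change -0.21, adjusted p = 2.9e-04) and Cidea (-0.03, adjusted p = 0.941) did not rise. Adipoq, the gene for adiponectin, had 0.906 and 1.02 normalized counts in sham and 81.6 and 104 after PNX. Ucp1, the uncoupling protein of brown fat, had 0.906 and 2.04 in sham and 45.2 and 51.3 after PNX, and Plin1, which coats lipid droplets, had 6.34 and 7.14 in sham and 44.2 and 37.9 after PNX. In sham 4 of the 7 markers were at or under the floor of 3 counts. The summed level, carried by Cidec, was 1112 and 1080 in sham and 1130 and 1133 after PNX. Their part in the result was not tested.

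In the terminal pathway no gene passed both thresholds, and the changes went in both directions. Hc, which encodes C5, had 10738 and 10867 normalized counts in sham and 5963 and 6011 after PNX. The groups did not overlap, and the log2 fold change was -0.85 (SE 0.023, adjusted p = 1.8e-40), the lowest of the 30 genes. C7, which anchors the attack complex to membranes, was higher, with 8523 and 8630 in sham and 12951 and 13030 after PNX (log2 fold change 0.60, SE 0.021, adjusted p = 5.1e-34). C6, the partner that binds C5b first, had 889 and 925 in sham and 731 and 825 after PNX. The log2 fold change of C6, -0.22 (SE 0.057, adjusted p = 4.9e-04), was 0.0018 under scaling to the EC markers. Its adjusted p was also above 0.01 by DESeq2's Wald test (0.042), without PNX replicate 1 (0.087) and without sham replicate 2 (0.012).

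The remaining terminal genes were low or not detected. C8g, a lipocalin chain of C8, had 154 and 165 normalized counts in sham and 144 and 140 after PNX, with a log2 fold change of -0.16 (SE 0.13, adjusted p = 0.263) that was 0.066 under scaling to the EC markers. C8a had 1 and 2 counts in sham and 0 after PNX. C8b, and C9, which forms the pore, had 0 counts in all 4 libraries, which at these depths allows up to 3 counts in each. These 3 genes were not tested.

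Alveolar type 2 markers were lower beside Hc. None of 8 passed the fold threshold, but all 8 had log2 fold changes under 0, between -0.71 and -0.21, with a median of -0.62. Their summed level was 343071 and 344128 in sham and 225408 and 223793 after PNX, and none was at 0. The B cell and T cell lists had lower medians, of -0.82 each. The part of any of these cell types in the lower Hc level was not tested.

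Of the 4 receptors, those that bind fragments of C3 passed both thresholds and those that bind C5a did not. C3ar1, the receptor of C3a, had 182 and 196 normalized counts in sham and 1424 and 1411 after PNX. C3ar1 had a log2 fold change of 2.91 (SE 0.068, adjusted p = 1.0e-43), a value close to those of the C1q genes. C5ar1, the main receptor of C5a, had 1753 and 1831 in sham and 2154 and 2125 after PNX, with a log2 fold change of 0.26 (SE 0.038, adjusted p = 2.5e-08). C5ar2, the second C5a receptor, had 201 and 186 in sham and 177 and 169 after PNX. The value for C5ar2, -0.16 (SE 0.11, adjusted p = 0.217), was 0.066 under scaling to the EC markers. Per kilobase, C3ar1 was 0.0614 and 0.0632 of C5ar1 in sham and 0.391 and 0.392 of it after PNX, so that C5ar1 stayed the higher of the pair in every library.

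Vsig4, also named CRIg, is a receptor of tissue macrophages that takes up particles coated with C3b. Sham replicates 1 and 2 had 10 and 12 counts of Vsig4, and post-PNX replicates 502 and 382, or 9.06 and 12.2 against 493 and 426 normalized counts. The log2 fold change was 5.43 (SE 0.18, adjusted p = 4.4e-36), a 43.2-fold higher level, again from few reads in sham. Markers of macrophages of the body cavities moved beside it, with 4 of 7 higher, none lower and none at 0, and a median log2 fold change of 1.58. They were Cd5l (5.55), Alox15 (2.10), Prg4 (2.07) and Timd4 (1.58), while Gata6, the defining transcription factor of these cells, had 0.64 (adjusted p = 1.6e-20). The summed level of the 7 markers was 8725 and 8963 in sham and 15906 and 16144 after PNX. Their part in the Vsig4 result was not tested.

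Other leukocyte lists gave no single direction. Of 7 alveolar macrophage markers 2 were higher (Marco and Chil3) and 1 lower (Ear1), with summed levels of 79803 and 79299 in sham and 210556 and 206301 after PNX, most of it Chil3. Of 5 monocyte markers none was higher and 1 lower (Treml4), and of 7 neutrophil markers 1 was higher (Mmp8) and none lower. The 4 pan-leukocyte markers had a median log2 fold change of 0.08 and none passed. The B cell and T cell lists had medians of -0.82 each. All 8 of their markers had log2 fold changes under 0, and 1 (Cd8a) was lower past the thresholds.

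**Figure D4:**
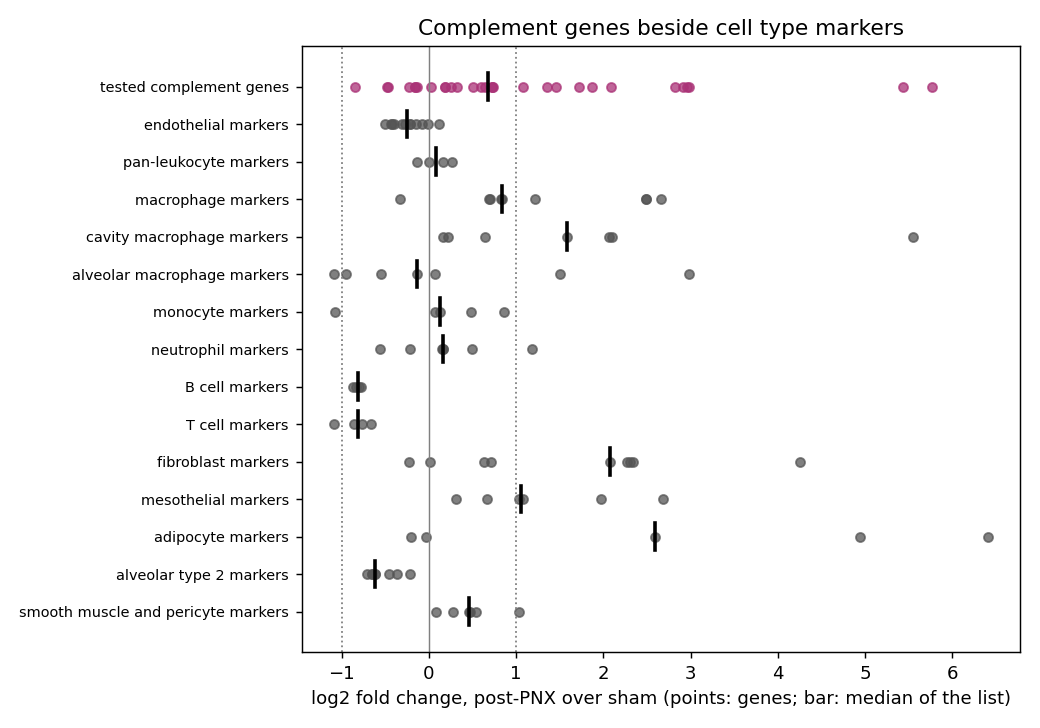
The log2 fold change of each tested gene (points) and the median (black bar) for the 30 complement genes and for 14 lists of cell type markers, with dotted lines at the fold threshold. The complement median (0.68) lies to the right of the endothelial (-0.25) and alveolar type 2 (-0.62) medians, among others. It lies to the left of the adipocyte (2.60), fibroblast (2.08), cavity macrophage (1.58), mesothelial (1.06) and macrophage (0.84) medians.

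Of the 7 regulators only Cfi passed both thresholds. Serping1, which blocks C1r, C1s and the lectin proteases, had 14568 and 14732 normalized counts in sham and 18340 and 18343 after PNX. Serping1 had a log2 fold change of 0.32 (SE 0.020, adjusted p = 1.1e-22), beside 1.08 and 0.64 for its targets C1s1 and C1ra. Clu, which encodes clusterin, a chaperone that holds back the attack complex, had 11471 and 11364 in sham and 18854 and 18995 after PNX (log2 fold change 0.73, SE 0.020, adjusted p = 4.6e-40). In normalized counts per kilobase Serping1 and Clu had the highest levels in sham, 8050 and 6315, and after PNX they stood at 10078 and 10467 behind C3 at 16256. In sham C3 came next (4458), followed by C7 (3166) and Cr1l (3014), a pair that lay close together.

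The membrane regulators, which protect host cells from complement, had log2 fold changes between -0.48 and 0.50. Cr1l, which encodes Crry, the rodent brake on C3 convertases, had 5089 and 4929 in sham and 4616 and 4457 after PNX. The log2 fold change of Cr1l, -0.14 (SE 0.028, adjusted p = 7.6e-06), was 0.083 under scaling to the EC markers. Cd55, which speeds the decay of convertases, had 2298 and 2245 in sham and 2286 and 2340 after PNX, and these libraries overlapped (log2 fold change 0.02, SE 0.035, adjusted p = 0.556). Cd59a, which blocks the pore, had 352 and 329 in sham and 453 and 516 after PNX, with a log2 fold change of 0.50 (SE 0.080, adjusted p = 1.7e-07). Cd46, a cofactor of factor I, had 123 and 90.7 in sham and 70.7 and 84.7 after PNX. For Cd46 the log2 fold change of -0.48 (SE 0.17) had an adjusted p of 0.0104, just above the threshold of 0.01, and of 0.005 with no filter on low counts. Of all exonic bases annotated for Cd46, 14.2% overlap the antisense gene A330023F24Rik, which had 139 and 180 in sham and 97.3 and 71.3 after PNX. Whether that overlap falls in the counted Cd46 transcript, of 1213 bases, was not examined. Reads of the pair therefore cannot be told apart with certainty.

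Cfi encodes factor I, the protease that inactivates C3b and C4b. It had 22 and 39 counts in sham and 76 and 68 after PNX, or 19.9 and 39.8 against 74.7 and 75.8 normalized counts. The sham libraries lay far apart, and the log2 fold change was 1.36 (SE 0.23, adjusted p = 8.1e-07). Without sham replicate 1 it was 0.92, under the fold threshold, and without sham replicate 2 it was 1.91, so the call rests on sham replicate 1. It was also lost in edgeR's glmTreat, which tests whether the change itself exceeds the fold threshold (adjusted p = 0.40).

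Another 30 genes of the complement system were listed, none of them among the 33. Of these 29 were found and 22 tested, and 4 were higher past both thresholds (5.90% of all genes) and 0 lower (1.66% of all genes), with a median log2 fold change of 0.13. At an unadjusted p under 0.05, 6 were lower in edgeR, 1 of them beyond the fold threshold, and DESeq2's Wald test gave 3 higher and 0 lower. Whatever the fold, 9 were higher (29.3% of all genes) and 4 lower (27.8% of all genes), the latter being Thbd, Cd93, Cr2 (complement receptor 2, log2 fold change -0.78) and Colec10 (a collectin, -0.98). The higher genes were Fcna, Itgam, Ptx3 and C1s2.

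Fcna, the ficolin A gene of the lectin pathway, had 127 and 114 normalized counts in sham and 1465 and 1463 after PNX (log2 fold change 3.60, SE 0.075, adjusted p = 1.4e-46). Itgam, the alpha chain of complement receptor CR3, had 2117 and 2229 in sham and 9340 and 9437 after PNX (log2 fold change 2.11, SE 0.028, adjusted p = 4.7e-57). Its beta chain Itgb2 changed less, with a log2 fold change of 0.45 (SE 0.021). Ptx3, a pentraxin that binds C1q, had 290 and 266 in sham and 1238 and 1277 after PNX (log2 fold change 2.17, SE 0.065, adjusted p = 4.1e-38). C1s2 had 7 and 5 counts in sham and 25 and 9 after PNX. The C1s2 log2 fold change of 1.60 (SE 0.49, adjusted p = 0.00323) was not called by DESeq2's Wald test (adjusted p = 0.11) or without either sham library, it was not tested without PNX replicate 1, and it shares sequence with C1s1.

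Thbd, Cd93 and Itgb2 were among the other genes with the highest mean counts. Thbd, the gene for thrombomodulin, an EC protein that also aids the inactivation of C3b, had 121414 and 120694 normalized counts in sham and 82818 and 82907 after PNX (log2 fold change -0.55, SE 0.015, adjusted p = 1.5e-39). Cd93, an EC protein once described as a C1q receptor, had a log2 fold change of -0.14 that was 0.087 under scaling to the EC markers.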

How the data were processed

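RNA of CD31-positive lung cells was sequenced in 4 libraries, 2 sham and 2 post-PNX, each pooled from 2 mice. The paper's methods state a stranded mRNA kit, paired ends and alignment to mm10, and the submitters' processing notes name STAR. The counting program and its strand setting are not given in the sources used here. The authors deposited whole-number read counts for 33068 transcripts, without normalization, beside FPKM (scaled by transcript length and library total) and TPM. The deposited FPKM served only to recover transcript length for levels per kilobase, and the deposited TPM was not used.

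For each gene symbol the 1 transcript with the highest summed count was used. Counts were tested in R 4.3.3 with edgeR 4.0.16 (filterByExpr, TMM, quasi-likelihood F test, no covariates) and adjusted by the Benjamini-Hochberg method over 16208 genes. Calls needed a log2 fold change beyond 1 with an adjusted p under 0.01, as stated in the paper's methods. The standard error (SE) is the log2 fold change divided by the square root of F. Levels of genes were compared as normalized counts per kilobase. The steps were tested on simulated data.

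The complement genes and the marker lists were chosen with earlier results of these data known, so their counts are descriptions. All 33 complement genes are named, and of the 30 other complement genes those called and the 4 with the highest mean count, of which 1 is not reported here. Marker genes named beside a result were chosen after their values were seen. Genes Siglecf, Ly6g and Muc16 of the marker lists and Cd55b of the other complement genes were not found by symbol, and Emr1 stands for Adgre1. Of 4 hepatocyte markers 1 was tested and none was called. Of 6 smooth muscle and pericyte markers 1 was higher (Cspg4) and none lower. Coordinates and promoters come from RefSeq in GRCm38.p6, exon overlap and copies from GENCODE on GRCm38. The alternatives were DESeq2 1.42.0 (size factors and Wald test), library size alone, scaling to 12 EC markers, no filter, a mean of at least 50 counts, the replicate block, counts summed over transcripts, glmTreat, an adjusted p under 0.05, no fold threshold, and each library left out.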

Additional observations from a re-analysis of the deposited data

How the results depend on the processing

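The number of complement genes higher after PNX was 12 under the other scalings, filters and tests except glmTreat (11), and the number lower was 0. With no fold threshold the numbers were 20 and 4. Leaving out each library gave 11 to 12 higher and 0 lower. For the other complement genes, no fold threshold gave 9 higher and 4 lower, an adjusted p under 0.05 gave 1 lower (Mbl1, named after its values were seen), and leaving out each library gave 3 to 4 higher and 0 to 1 lower, the 1 being Mbl1 without PNX replicate 1. With the replicate block, 12 complement genes were higher and 0 lower, and 4 other complement genes were higher and 0 lower. The block changed none of the calls made on fold and adjusted p, while Cd46 then passed an adjusted p under 0.01 (0.0059) whatever the fold. The groups share only the numbers 1 and 2, since their mice differ (correlation of deviations 0.03 over 16208 genes).

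Scaling to the EC markers turned the direction of C5ar2 (log2 fold change 0.0655), C6 (0.0018), C8g (0.0656), Cr1l (0.0833) and Cd93 (0.0868), as that scaling raises every gene by about the same step. Cfi was not called in glmTreat or without sham replicate 1 (0.92), and C1s2 was not called in glmTreat, by DESeq2's Wald test, with counts summed over transcripts, or without sham replicate 1 or 2. A minimum mean of 50 counts left C1s2 untested, as did leaving out PNX replicate 1. Of the single-gene results under the alternatives, 480 kept their direction and their call on fold and adjusted p together. Outside glmTreat, adjusted p alone crossed 0.01 for C6 as given above, for Cd55 (2.6e-07), Masp1 (0.0077) and Cr1l (0.012) under scaling to the EC markers, and for Cd46 with no filter (0.005), without PNX replicate 2 (0.0089) and without sham replicate 2 (0.0013). At 3 counts per library, a change of C8a, C8b or C9 was not detectable.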
